A study of Homo sapiens with 4 samples.

Results

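The T-box genes are a family of transcription factors that share the T-box, the domain with which they bind DNA. The genes described here are TBX3 and 8 relatives, TBX1, TBX2, TBX4, TBX5, TBX6, TBX15, TBX18 and TBX19, chosen by their symbols in a table of 20510 genes. The table held a row for 7 of the 9, and TBX5 and TBX18 were not analysed here. Rows were also found for 4 more genes with a T-box, TBX10, EOMES, TBR1 and MGA, which gives 11 T-box genes in all.

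The RNA came from cultures labelled K1, a human line derived from papillary thyroid carcinoma. Libraries labelled shCtrl carried a control hairpin (genotype Ctrl, 2 libraries), and libraries labelled shTBX3 carried a short hairpin RNA against TBX3 (genotype TBX3 knockdown, 2 libraries). A hairpin of this kind is processed into a small RNA that leads to loss of the matching mRNA, so it lowers a transcript and does not delete the gene. The sources used here do not give the sequence or number of the hairpins, their vector, or whether a clone or a pool of cells was used. Nothing in the labels says that the replicates were separate cultures. Every limma p-value below reflects how far these 4 libraries spread, in the gene itself and over the other genes tested. Part of that spread can be technical.

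T-box proteins bind a short element, of which AGGTGTGA is the classical half-site, and activate or repress the genes nearby. TBX2 and TBX3 act mainly as repressors, with a repression domain as well as the T-box. They are known for limb, heart and mammary gland development, for repressing cyclin-dependent kinase inhibitor genes and for letting cells escape senescence. TBX3 and TBX5 lie next to each other on chromosome 12, and TBX2 and TBX4 on chromosome 17, pairs that go back to an ancient duplication. The title of the series names TBX3, PRC2, a Polycomb complex, and p57KIP2, the product of CDKN1C, in papillary thyroid carcinoma cells.

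The values were FPKM, the number of fragments from a gene divided by transcript length and by library depth. In each library 13674 to 13757 genes had an FPKM of at least 1. The steps in the values of microRNA genes correspond to an estimated depth of 8540000 to 8760000 fragments a library. Of the thyroid markers, TG, TSHR, NKX2-1 and FOXE1 stayed below an FPKM of 1 in all 4 libraries, and PAX8, SLC5A5 and HHEX reached it. The 8 thyroid markers summed to between 7.15 and 7.85 FPKM in shCtrl and between 7.43 and 7.67 in shTBX3, and the 8 colon epithelial markers to between 194.97 and 247.99 in shCtrl and between 197.21 and 207.52 in shTBX3. CDX2, an intestinal transcription factor, alone lay between 116.78 and 147.75, while the mesenchymal marker VIM lay between 0.16 and 0.34. The 4 mesenchymal markers summed to 3.14 or less and the 4 leukocyte markers to between 16.32 and 18.41, most of it LYZ (14.56 to 16.51), which epithelia also make. LGALS4, a colon galectin, measured 4.33 and 5.59 with the control hairpin against 1.31 and 1.39 with the TBX3 hairpin (limma adjusted p = 0.102). FABP1, near the limit of detection and too low for the test, was listed at 0.21 and 0.20 against 0 in both. KRT20, a keratin of the same list, went the other way in its means (18.30 and 36.21 against 35.86 and 29.79, overlapping), and CDX1 overlapped too (0.20 and 0.46 against 0.27 and 0.40). Of the 5 colon markers tested, 1 was higher and 4 lower, and none passed the limma threshold. Of the 8 colon markers 5 reached an FPKM of 1, and CDX1, GPA33 and FABP1 stayed below it in all 4 libraries. CDX2 made up most of the colon sum. Of the 8 thyroid markers 3 reached an FPKM of 1. The markers are thus mixed, and the low thyroid markers and high CDX2 leave the thyroid label of these cultures uncertain. The identity of the line was not tested. The part of these levels in the results below was not tested. In bulk RNA, fewer cells with a transcript and less of it per cell cannot be told apart.

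TBX3 was the T-box gene with the highest level. With the control hairpin its FPKM was 48.94 in replicate 1 and 54.77 in replicate 2, and with the TBX3 hairpin it was 27.81 and 36.99. Both knockdown values lay below both control values, with a gap of 11.95 FPKM between the lowest control and the highest knockdown library. The library labelled shTBX3 replicate 1 was the lowest of the 4, and in both groups the library numbered 2 was the higher. Mean FPKM was 51.9 ± 4.12 for the control and 32.4 ± 6.49 for the knockdown (SD, n = 2 each), which left 62.5% of the control level. TBX3 thus remained well above every other T-box gene in the libraries with the hairpin. Over the 4 libraries 90.7% of the genes of the table had a lower mean FPKM than TBX3.

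The difference in TBX3 did not pass the test across all genes. The fitted log2 fold change, on the log2(FPKM + 1) scale that is used for every fold change here, was −0.67 ± 0.17 (SE), with a limma p of 0.00718 before and 0.428 after Benjamini-Hochberg adjustment over 13924 genes. An exact permutation test of 2 libraries against 2 has 6 arrangements and cannot give a two-sided p below 0.333, which is the p it gave for TBX3. Of the 13924 genes, 0.18% passed the adjusted threshold of 0.05, 0.108% as lower in shTBX3, and TBX3 was not among them. A log2 fold change at or below that of TBX3 was found in 271 genes (1.95%), and a p at or below that of TBX3 in 230 (1.65%). Among the 3001 genes within 2-fold of TBX3 in mean level (FPKM 21.06 to 84.26), 37 (1.23%) had a log2 fold change at or below its own.

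**Figure D1:**
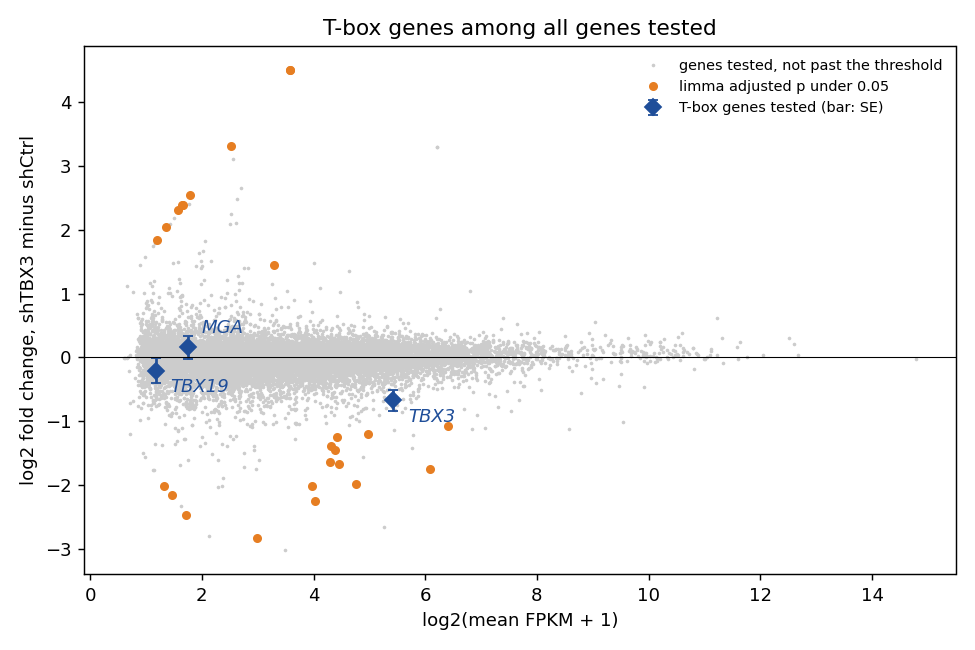
Log2 fold change (shTBX3 minus shCtrl, vertical axis) against log2(mean FPKM + 1) for the 13924 genes tested; orange points passed limma's adjusted p of 0.05, and blue diamonds with SE bars are the 3 T-box genes tested. TBX3 lies at −0.67, below the bulk of genes of its level but outside the orange points, and TBX19 and MGA lie within the bulk.

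Counting error was small for TBX3. With a canonical transcript of 4733 nucleotides, its FPKM corresponds to about 1967 and 2253 fragments in shCtrl and 1115 and 1508 in shTBX3, for which counting alone gives a coefficient of variation between 2.11% and 2.99%. The libraries of a group differed by more than that, 1.12-fold in shCtrl and 1.33-fold in shTBX3. By replicate number the ratio of shTBX3 to shCtrl was 0.568 for number 1 and 0.675 for number 2. The log2 fold change was −0.87 without shTBX3 replicate 2 and −0.47 without shTBX3 replicate 1, so the size of the difference moved with the knockdown library kept.

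**Figure D2:**
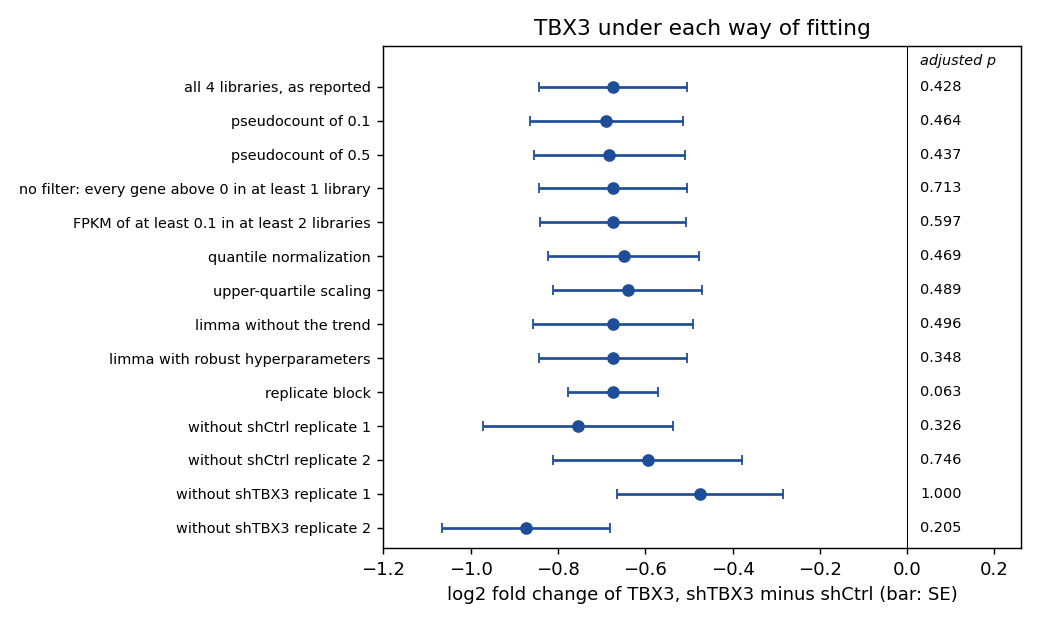
Log2 fold change of TBX3 (shTBX3 minus shCtrl) with its SE for the fit as reported and under each of 13 alternatives, with limma's adjusted p at the right. Every estimate is negative, from −0.87 to −0.47, and no adjusted p is below 0.05.

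TBX3 spans chromosome 12, 115108060 to 115121980, on the minus strand (GRCh37, GENCODE). The table gives a single value for its 2 RefSeq transcripts. In GENCODE its 2 coding transcripts differ by a coding exon of 60 nucleotides, the exon 2a that lengthens the T-box, at chr12:115117718-115117777. The exon is printed because the FPKM merges the form with it (coding length 2229) and the form without it (2169), so the levels of the forms cannot be told apart in these values.

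TBX3 exon 2a: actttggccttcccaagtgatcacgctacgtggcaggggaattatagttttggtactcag

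Related genes can share fragments when their sequences match, so the canonical transcripts of the 11 T-box genes were compared in all 55 pairs. The longest identical run in any pair was 26 nucleotides (TBX1 and TBX10), and the median over pairs was 14. The runs that TBX3 shares with 4 relatives are printed here, all in coding exons of TBX3. The TBX2 run lies in exon 1 at chr12:115120691-115120714, the TBX19 run in exon 2 at chr12:115118774-115118788, the TBX15 run in exon 3 at chr12:115117425-115117441 and the TBR1 run in exon 4 at chr12:115115421-115115439. The sources used here do not give the read length.

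TBX3 and TBX2, 24 nucleotides: gaggtggaggacgaccccaaggtg
TBX3 and TBX19, 15 nucleotides: tacattcacccggac
TBX3 and TBX15, 17 nucleotides: atgcacaaataccagcc
TBX3 and TBR1, 19 nucleotides: acaacccttttgcaaaagg

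TBX2, the closest relative of TBX3 and like it a repressor, was near the limit of detection. Its level measured 0.28 and 0.07 FPKM with the control hairpin against 0.07 and 0 with the TBX3 hairpin. The groups overlapped, since shCtrl replicate 2 and shTBX3 replicate 1 had the same value. These values correspond to about 8, 2, 2 and 0 fragments. The exact Poisson interval (95%, counting error only) was 4.8 to 18.39 for the 10 fragments of the control libraries together and 0.24 to 7.22 for the 2 of the knockdown libraries. These intervals are no test of a difference. TBX2 did not reach the level needed for the test, which was 1 FPKM in 2 or more libraries. TBX2 spans 59477204 to 59486827 on chromosome 17, 42.9 kb from TBX4, and TBX2-AS1, annotated antisense to it, was listed at 0.14 in shCtrl replicate 2 and at 0 in the other 3 libraries. The sources used here do not give strandedness, so reads of the 2 genes cannot be told apart where they overlap.

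TBX4, the partner of TBX2 on chromosome 17 (59529765 to 59562471) and a gene of hindlimb and lung development, was listed at 0.07 in shCtrl replicate 1, about 2 fragments, and at 0 in the other 3 libraries. A count of 0 allows up to 3.69 fragments by the same interval.

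TBX19, also called TPIT, drives the corticotroph lineage of the pituitary gland and was the other listed member that could be tested. Its level measured 1.41 and 1.45 FPKM with the control hairpin against 1.03 and 1.18 with the TBX3 hairpin. The shTBX3 values were both lower, and the groups did not overlap. Means were 1.43 ± 0.0283 and 1.105 ± 0.106 (SD, n = 2 each), 22.7% lower in shTBX3, and limma gave −0.21 ± 0.19 on the log2 scale (adjusted p = 0.931). The values rest on about 36 and 37 fragments in shCtrl and 26 and 30 in shTBX3, and the Poisson intervals of the shCtrl total (57.22 to 91.79) and the shTBX3 total (42.30 to 72.72) overlapped. Both members tested thus had groups that did not overlap in the lower direction, a pattern found in 19.7% of all genes tested (34.6% in either direction), and neither passed the threshold (limma, 1 of the 2 at an unadjusted p under 0.05, where 6.67% of all genes tested were). TBX19 spans 168250115 to 168283664 on chromosome 1.

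TBX1, a gene of pharyngeal arch and outflow tract development on chromosome 22 (19744226 to 19771116), measured 0.84 and 0.87 FPKM with the control hairpin against 0.68 and 1.32 with the TBX3 hairpin. The shTBX3 libraries lay on either side of the shCtrl libraries and differed 1.94-fold from each other, so the direction of TBX1 depended on the library. It rested on about 14, 15, 12 and 23 fragments and reached an FPKM of 1 in shTBX3 replicate 2 alone.

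TBX6, a gene of paraxial mesoderm on chromosome 16 (30097114 to 30103245), measured 0.20 and 0.32 FPKM with the control hairpin against 0 and 0.26 with the TBX3 hairpin, about 3, 5, 0 and 4 fragments. TBX15, known in skeletal and adipose development, on chromosome 1 (119425669 to 119532179), stood at 0.03 and 0.07 in shCtrl and at 0.03 in both shTBX3 libraries, 1 or 2 fragments each. The groups of both genes overlapped. TBX2, TBX4, TBX6 and TBX15, 4 of the 7 members, never rose above 8 fragments in a library.

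The 4 T-box genes outside the listed members had a higher mean in shTBX3, but none was shown to change. MGA, a large protein that pairs with MAX and is a subunit of a PRC1-type complex, measured 2.23 and 2.10 FPKM with the control hairpin against 2.80 and 2.28 with the TBX3 hairpin, and it was tested (log2 fold change 0.16 ± 0.18, limma adjusted p = 0.949). The higher shTBX3 value of MGA came from replicate 1, and without it the log2 fold change was 0.05. EOMES, a regulator of endoderm and lymphocyte fate, measured 0.54 and 0.66 FPKM with the control hairpin against 0.66 and 0.75 with the TBX3 hairpin. TBR1, a gene of cortical neurons, measured 0.15 and 0.03 FPKM with the control hairpin against 0.21 and 0.20 with the TBX3 hairpin. These values of TBR1 correspond to at most about 7 fragments, too few for the test. The groups of EOMES met at 0.66. Those of MGA and TBR1 did not overlap, a pattern found in either direction in 34.6% of all genes tested. TBX10 was listed at 0.08, about 1 fragment, in shTBX3 replicate 2 and at 0 in the other 3 libraries.

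**Figure D3:**
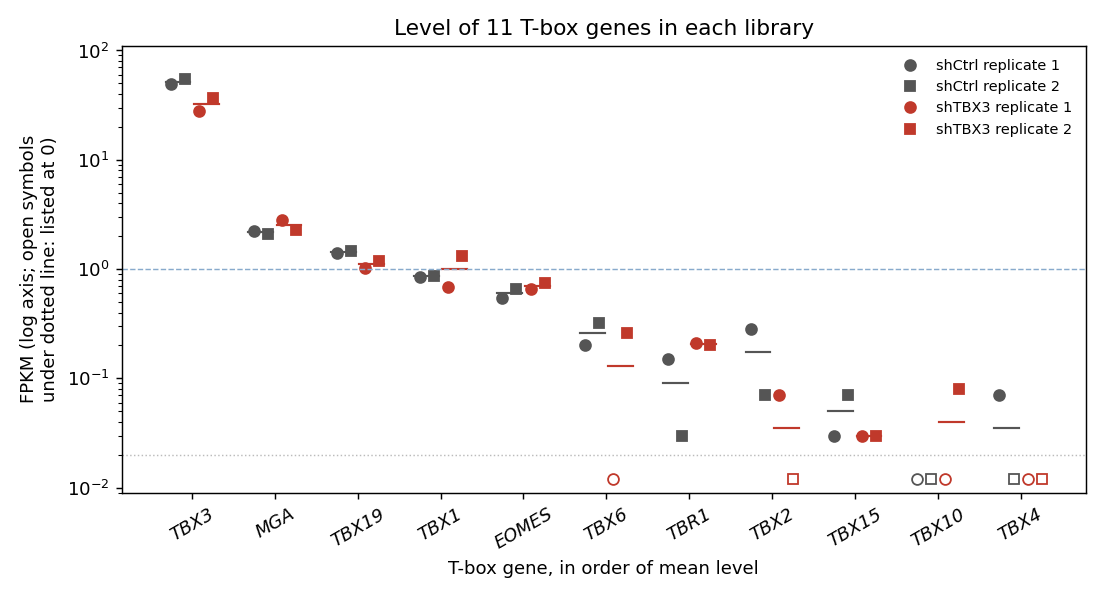
FPKM (log axis) of the 11 T-box genes in order of mean level, with 2 control libraries in grey and 2 knockdown libraries in red; filled points are libraries, short bars are group means, open symbols under the dotted line are values listed at 0, and the dashed line marks an FPKM of 1. TBX3 stands alone at 27.81 to 54.77, and 8 of the 11 genes have a mean below 1.

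Ordered by mean FPKM over the 4 libraries, TBX3 (42.13) came first, followed by MGA (2.35), TBX19 (1.27), TBX1 (0.928), EOMES (0.653), TBX6 (0.195), TBR1 (0.148), TBX2 (0.105), TBX15 (0.04), TBX10 (0.02) and TBX4 (0.0175). FPKM divides by transcript length, so these levels can be set side by side. The ranges over the 4 libraries did not overlap between TBX3 and MGA, between MGA and TBX19, or between EOMES and TBX6, and all other neighbours in the order overlapped. The TBX3 mean was 17.9-fold that of MGA and 33.2-fold that of TBX19. TBX3 made up 89.5% and 90.8% of the summed T-box FPKM under the control hairpin against 83.5% and 85.8% under the TBX3 hairpin. The sum of the other 10 genes measured 5.75 and 5.57 FPKM with the control hairpin against 5.48 and 6.10 with the TBX3 hairpin, and the groups overlapped.

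The 5 genes whose centred profiles over the 4 libraries lay closest to TBX3 were RIN1, PDSS2, YIPF4, EPS8 and GCDH. The measure was the root-mean-square distance in log2(FPKM + 1) among 9022 genes with a mean FPKM of at least 5. It ran from 0.0213 for RIN1, an effector of RAS, to 0.0508 for GCDH, a mitochondrial dehydrogenase, where the median gene was at 0.382. RIN1 measured 6.04 and 6.74 FPKM with the control hairpin against 2.92 and 4.36 with the TBX3 hairpin, and EPS8, an EGF receptor substrate that acts on actin, 28.39 and 30.79 against 15.74 and 19.65. None of the 5 passed the limma threshold (adjusted p between 0.277 for EPS8 and 0.592 for GCDH). The 5 were picked by likeness to TBX3, which did not pass either, so their test results are no separate evidence. With 4 libraries such likeness is a description of these values only.

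TBX2 and TBX3 repress through corepressors, and 20 of 23 listed corepressors and partners could be tested, of which 11 were higher and 9 lower with a median log2 fold change of 0.03, beside −0.01 over all genes tested. None passed the limma threshold, where 0.18% of all genes did, and 1 of the 20 had an unadjusted p under 0.05, beside 6.67% of all genes. MSX2, a homeobox partner of TBX2 and TBX3, measured 20.57 and 21.44 FPKM with the control hairpin against 29.09 and 30.61 with the TBX3 hairpin (log2 fold change 0.49 ± 0.12, limma adjusted p = 0.428). Both shTBX3 values of MSX2 were above both shCtrl values, and the pairs were tight. MSX1 had the same order (9.68 and 9.90 against 15.45 and 10.55, limma adjusted p = 0.852). The histone deacetylases HDAC1 (46.62 and 49.80 against 58.93 and 44.73) and HDAC2 (20.43 and 18.11 against 21.98 and 19.59) overlapped between the groups.

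Of 12 genes reported as repressed by TBX2 or TBX3, 11 had a row and 5 could be tested, 2 higher and 3 lower with a median log2 fold change of −0.12. None passed the threshold (smallest limma adjusted p = 0.852, none at an unadjusted p under 0.05). CDKN1C and CDKN1A, which encode inhibitors of cyclin-dependent kinases, were the 2 with a positive log2 fold change (0.51 ± 0.28 and 0.44 ± 0.32), and the groups of both overlapped. CDKN1C, which encodes p57KIP2, measured 5.64 and 9.43 FPKM with the control hairpin against 8.75 and 13.41 with the TBX3 hairpin (limma adjusted p = 0.852). Leaving out single libraries, its log2 fold change ran from 0.18 without shCtrl replicate 1 to 0.84 without shCtrl replicate 2. In both genes the libraries numbered 2 were the higher of their group. CDKN1A measured 5.50 and 10.93 FPKM with the control hairpin against 8.87 and 13.43 with the TBX3 hairpin. Its log2 fold change was 0.00 without shCtrl replicate 1 and 0.88 without shCtrl replicate 2. CDH1, which encodes E-cadherin, measured 142.94 and 180.60 FPKM with the control hairpin against 141.19 and 153.76 with the TBX3 hairpin. NDRG1, a stress-induced gene, measured 7.61 and 22.24 FPKM with the control hairpin against 7.36 and 16.99 with the TBX3 hairpin, so the libraries numbered 1 and 2 differed more than the groups did. In CDH1 and NDRG1 the sign changed when shCtrl replicate 2 was left out (0.04 and 0.51), and in NDRG1 also without shTBX3 replicate 1 (0.35).

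The 6 other genes of that list missed the filter. CDKN2A was listed at 0.43 in shTBX3 replicate 2 and at 0 in the other 3 libraries, and TYRP1, a melanocyte enzyme, at 0.04 in the same library and at 0 elsewhere. NPPA, the atrial natriuretic peptide that TBX2 and TBX3 repress in the heart, measured 0.72 and 0.28 FPKM with the control hairpin against 1.58 and 0.71 with the TBX3 hairpin, with an overlap of the groups. GJA1, a connexin, stood at 0.04 and 0.11 in shCtrl and at 0.19 in both shTBX3 libraries. CST6 had group means of 0.505 or below.

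The CDKN1A promoter is printed because, of the 5 listed targets with a promoter entry, it alone held the T-box half-site. It covers 250 bases before to 50 after the transcription start at chr6:36678464-36678763 on the plus strand (RefSeq, GRCh38.p14). The capitals mark AGGTGTGA, which runs from base 2 to base 9 counted from the start as base 1.

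CDKN1A promoter: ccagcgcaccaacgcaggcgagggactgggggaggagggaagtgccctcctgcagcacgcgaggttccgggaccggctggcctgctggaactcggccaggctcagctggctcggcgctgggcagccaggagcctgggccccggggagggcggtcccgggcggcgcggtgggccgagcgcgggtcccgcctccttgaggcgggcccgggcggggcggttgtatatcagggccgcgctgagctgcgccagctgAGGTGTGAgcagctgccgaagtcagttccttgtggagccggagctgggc

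AGGTGTGA, searched on both strands, was found in 0.98% of 35116 RefSeq promoter entries of 300 bases. A promoter was matched for 82.3% of the 11837 coding genes tested. Of those, 101 held the half-site, 47 higher and 54 lower with the TBX3 hairpin (median log2 fold change −0.02). Over all 9747 coding genes with a promoter, 4558 were higher and 5189 lower, with a median of −0.01. None of the 101 and 9 of the 9747 (0.092%) passed limma's threshold. The core AGGTGT, which every AGGTGTGA contains, was in a promoter of 1256 of these genes, of which 42.9% were higher, against 46.8% of all 9747, and 1 of the 1256 (GJB2, a connexin, 0.08%) passed. No motif of either kind was found in the promoters of the 8 T-box genes with an entry. The promoters of TBX2, TBX3, TBX15 and CDKN1C were not analysed here. A match of letters is a description and says nothing of binding.

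TBX3 transcription is known to respond to Wnt, BMP, TGF-beta, retinoic acid and MAP kinase signals. Of 19 listed regulators 15 were tested, 8 higher and 7 lower, with a median log2 fold change of 0.03. None passed the limma threshold, and 2 of the 15 had an unadjusted p under 0.05, beside 6.67% of all genes. JUN, a subunit of the transcription factor AP-1, measured 3.97 and 5.99 FPKM with the control hairpin against 10.37 and 13.92 with the TBX3 hairpin. All shTBX3 values of JUN were above all shCtrl values, a ratio of the means of 2.44 (log2 fold change 1.14 ± 0.22, limma adjusted p = 0.226). BMP4, a ligand upstream of TBX2 and TBX3 in limb and mammary tissue, measured 319.55 and 312.67 FPKM with the control hairpin against 231.04 and 211.03 with the TBX3 hairpin (ratio 0.699, log2 fold change −0.52 ± 0.12, limma adjusted p = 0.338). RARG, a retinoic acid receptor, measured 27.11 and 30.99 FPKM with the control hairpin against 17.29 and 26.05 with the TBX3 hairpin (limma adjusted p = 0.816). CTNNB1 (79.85 and 88.84 against 96.60 and 85.45), which encodes beta-catenin, and BRAF (8.07 and 9.71 against 8.69 and 11.08) overlapped between the groups.

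The genes around the T-box pairs gave a view of the neighbourhoods. On chromosome 12, RBM19 measured 11 and 10.71 FPKM with the control hairpin against 15.44 and 12.65 with the TBX3 hairpin (log2 fold change 0.34 ± 0.15, limma adjusted p = 0.777), and MED13L, a Mediator subunit, between 9.95 and 11.05 in all 4 libraries. LHX5 stayed at 1.07 or below. On chromosome 17, BCAS3 measured 2.71 and 3.77 FPKM with the control hairpin against 1.96 and 2.80 with the TBX3 hairpin (limma adjusted p = 0.898), and BRIP1, a DNA helicase, 8.25 and 6.41 against 8.03 and 7.97. Of the 5 neighbours tested, 2 were higher and 3 lower (median log2 fold change −0.03), and none passed the limma threshold or had an unadjusted p under 0.05.

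**Figure D4:**
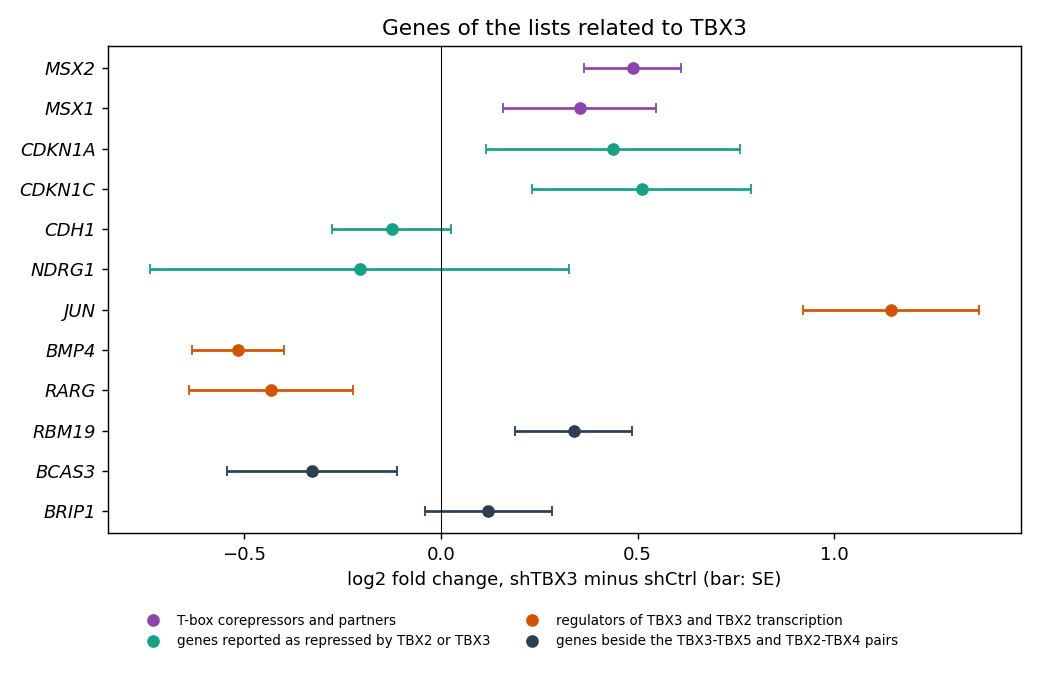
Log2 fold change (shTBX3 minus shCtrl, horizontal axis) with SE for the genes described in the text from 4 lists related to TBX3, coloured by list. JUN has the highest value at 1.14 and BMP4 the lowest at −0.52, and none of the genes shown passed limma's adjusted p of 0.05.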

How the data were processed

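The authors deposited FPKM per gene and library, per the file headers. HISAT, Bowtie2, RSEM and the build hg19 are named, without roles, per the submitters' processing notes. The sources used here do not give the annotation release, filters or strandedness. The test ran on the log2(FPKM + 1) scale in limma 3.58.1 (R 4.3.3; trended eBayes, two-sided), for the 13924 genes that reached 1 FPKM in 2 or more libraries, with Benjamini-Hochberg adjustment over them and a threshold of 0.05. The residual degrees of freedom were 2 and the prior ones 4.11. The fit was also run on simulated data, with a spread pooled over genes and known changes larger than that of TBX3. That run does not cover a change of the size seen for TBX3. Alternatives were other pseudocounts, filters, scalings and limma settings, a replicate block and each library left out.

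Members and lists were chosen with earlier results of these data known. Named were all T-box genes, every member tested of the reported targets and, in the other lists, members past the threshold and the 3 smallest p, plus the 5 profiles most like TBX3. Some genes that this rule names are not reported here. The untested targets and HDAC1, HDAC2, LGALS4, FABP1, KRT20, CDX1, GJB2, CTNNB1, BRAF, MED13L, LHX5 and the marker genes CDX2, VIM and LYZ were chosen after their values were seen.

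Fragments were estimated from FPKM, the canonical transcript length in GENCODE release 44 on GRCh37 and a depth fitted so that microRNA genes of up to 6 fragments came out whole. Between 85.7% and 95.7% of 94 to 105 values per library lay within 0.05 of a whole number, with 37 nucleotides taken off each length. The depth and the 37 nucleotides were chosen to make this share highest, so the share is no independent check of them. An even spread would give 10% only at a depth fixed beforehand. The fragment counts are estimates, and genes with several transcripts are approximate. The restriction of the motif comparison to coding genes was chosen after the data were seen, since only 76.6% of all genes tested had a promoter. Python 3.11.15, numpy 2.4.6, pandas 2.3.3 and scipy 1.17.1 were used.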

Additional observations from a re-analysis of the deposited data

How the results depend on the processing

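TBX3 kept its negative sign under all 13 alternatives, and so did TBX19, while MGA kept its positive sign; none of the 3 passed the threshold in any. Leaving out single libraries, where the lone library left in a group is assumed to vary like the other group, the log2 fold change ran from −0.87 to −0.47 for TBX3, from −0.26 to −0.16 for TBX19 and from 0.05 to 0.26 for MGA. With the replicate block, the adjusted p of TBX3 was 0.0632 with the same log2 fold change of −0.67, JUN passed (0.0272), and limma called 132 genes instead of 25. No label states that a replicate number pairs libraries. The deviations of same-numbered libraries from their group means correlated at 0.26 across genes. The count of genes past the threshold was 25 as reported, 7 with a pseudocount of 0.1, 15 when genes needed only 0.1 FPKM in 2 libraries, and 0 with no filter (limma, 1249 at an unadjusted p under 0.05). It ran from 12 without shTBX3 replicate 1 to 55 without shCtrl replicate 1. With no filter the 8 T-box genes left out of the test had adjusted p between 0.876 and 0.953. Leaving out single libraries changed the sign of CDH1 (−0.29 to 0.0435), NDRG1 (−0.92 to 0.51) and BRIP1 (−0.0395 to 0.28), each without shCtrl replicate 2 and NDRG1 also without shTBX3 replicate 1 (0.35). Without shTBX3 replicate 1 the log2 fold change was 0.10 for MSX1, −0.15 for RARG and −0.15 for BCAS3. Depth limits TBX2, TBX4, TBX6, TBX10, TBX15 and TBR1, which rested on at most 8 fragments in a library.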
